A study of Homo sapiens with 22 samples.

Results

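A set of 5274 regions was examined in which, in AN3CA cells expressing wild-type ARID1A (WT), SMARCC1 and H3K27ac peaks were listed without a SMARCA4 peak. They were selected on chromosomes 1 to 22 from the 23364 SMARCC1 peaks of WT cells, of which they make up 22.6%. A SMARCC1 peak was taken when it shared no base with a WT SMARCA4 peak, shared at least 1 bp with a WT H3K27ac peak, and met no SMARCA4 or SMARCC1 peak in either replicate of cells with an empty vector (Empty). Of the 23364 peaks, 14022 (60.02%) met no WT SMARCA4 peak, and 9461 of these (40.5% of all) were acetylated. A further 4187 of the 9461 met an Empty peak and were set aside. A peak that met no SMARCA4 or SMARCC1 peak of Empty cells is called new below.

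SMARCC1 is a scaffold subunit in the core of the BAF (SWI/SNF) chromatin remodelling complexes and is shared by their different forms. SMARCA4 is one of a pair of alternative ATPases that drive nucleosome remodelling. The other, SMARCA2, was not among the antibodies, so a SMARCC1 peak without a SMARCA4 peak does not show a complex without an ATPase. ARID1A is a subunit of the canonical BAF form, which acts mainly at enhancers, and H3K27ac is an acetylated histone residue found at active enhancers and promoters.

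AN3CA is a human endometrial carcinoma cell line. The groups were cells with the empty vector control and cells expressing ARID1A in wild-type form or as 1 of 4 mutants, named in the labels the CBR truncation mutant, the DBDmut ARID domain mutant, the delIDR1 truncation mutant and the DDX4 IDR hybrid mutant (an IDR is an intrinsically disordered region). Antibodies to SMARCC1, SMARCA4 and H3K27ac were used in CUT&Tag, which recovers DNA cut beside the bound antibody by a tethered transposase. Each construct had 1 library per antibody, Empty had 2, and an HA library of DDX4 cells made 22 libraries in all. All were amplified with 14 PCR cycles. The labels name neither the promoter of the constructs nor whether a line was 1 clone, and they do not say whether the Empty replicates were separate cultures.

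The deposited lists held 5411 to 92136 peaks each, the lowest for HA and the highest for Empty H3K27ac replicate 2. Depth was estimated from the peaks themselves as background fragments per kb. For WT it was 3.29 in the SMARCC1 library, 1.53 in the SMARCA4 library and 4.49 in the H3K27ac library. The mutant SMARCC1 libraries ranged from 1.32 to 2.87 and their SMARCA4 libraries from 0.913 to 1.22, all below WT. H3K27ac libraries ranged from 3.59 to 6.05 in the mutants, with 4.40 and 14.5 in Empty replicates 1 and 2. A date-like stamp at the start of peak names was 20220118 for DDX4, 20220422 for Empty replicate 2 and 20210822 for all others, so construct and stamp cannot be told apart for DDX4. Shares below carry 95% Wilson intervals, which cover counting error only. With 1 library per construct no difference between constructs has a replicate check, and its relation to depth or stamp was not tested.

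In WT cells the 5274 regions were narrow and of modest height. The authors' fold enrichment of their SMARCC1 peaks had a median of 5.95 and ran from 2.80 to 15.5. The authors' -log10 q had a median of 5.996 and reached 36.9, and the summits stood on a median of 11 fragments, from 5 to 61. These fold and q values belong to each peak within its own list and only describe or rank it there. The peaks were 214 bp wide at the median and ranked between 720 and 23363 in the WT list, with a median rank of 15558.

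The 3767 new acetylated SMARCC1 peaks that did meet a WT SMARCA4 peak were higher in the same list. Their median fold was 8.12, their median -log10 q 11.4, their median width 296 bp and their median summit pileup 17 fragments. Across the new acetylated peaks, the share without a WT SMARCA4 peak fell along the SMARCC1 -log10 q, from 1004 of 1110 (90.5%) at 2 to 4 and 1835 of 2882 (63.7%) at 6 to 10 to 41 of 697 (5.88%) at 20 and above. Since these lists made the selection, this is a description with no test. The WT SMARCA4 library was the shallower one by the estimate above, and its part in the absence of SMARCA4 peaks was not tested.

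The gap to the next WT SMARCA4 peak had a median of 31044 bp, and 295 regions (5.59%) had one within 1000 bp, 1251 (23.7%) within 10000 bp and 4232 (80.2%) within 100000 bp. At the edge of the selection, chr18:245378-245525 and chr2:173881260-173881409 (hg19) were taken with a WT SMARCA4 peak 3 bp away and chr15:64753561-64753722 with one 10 bp away. Just outside it, chr3:25042903-25043055 and chr5:81454777-81454946 shared 1 bp with a WT SMARCA4 peak and chr13:51251763-51252090 shared 4 bp. The new SMARCC1 peaks with neither SMARCA4 nor acetylation in WT lay farther away, with a median gap of 66010 bp.

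The WT H3K27ac peaks at the regions had a median fold of 6.92, against 5.80 for the whole H3K27ac list and 8.72 at the peaks with SMARCA4. They were 414 bp wide at the median, against 317 bp over the list. The SMARCC1 summit lay inside the H3K27ac peak at 4912 of the 5274 regions (93.1%), and the 2 summits were a median of 58 bp apart. The selection required these peaks to overlap, which bounds the distance. At the peaks with SMARCA4, 98.2% of the summits lay inside, at a median of 44 bp. The regions fell in 5236 separate H3K27ac peaks, and only 140 regions (2.65%) were in an H3K27ac peak that touched a WT SMARCA4 peak elsewhere along its length. One H3K27ac peak on chromosome 13 held 3 of the regions, between 98824665 and 98826167.

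SMARCC1 was listed again at 1292 of the 5274 regions in DBDmut cells, or 24.5% (23.4 to 25.7%). Over all 23364 WT SMARCC1 peaks this share was 51.3%. In delIDR1 cells 461 regions, 8.74% (8.01 to 9.53%), carried a SMARCC1 peak, against 32.6% of all WT SMARCC1 peaks. In CBR cells it was 354, 6.71% (6.07 to 7.42%), against 31.5%, and in DDX4 cells 156, 2.96% (2.53 to 3.45%), against 28.9%. The overall shares include the 10314 WT peaks met by Empty peaks, which the selection leaves out, so the closer comparison is with the other new peaks. New acetylated peaks with WT SMARCA4 met SMARCC1 in 54.8%, 26.1%, 12.1% and 5.07% in DBDmut, delIDR1, CBR and DDX4. New peaks without SMARCA4 and without acetylation did so in 10.7%, 3.11%, 6.37% and 2.78%. DBDmut thus met the most regions and DDX4 the fewest, and each mutant met a smaller share here than at the peaks with SMARCA4.

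SMARCA4, absent by selection in WT, was listed in the mutants at a part of the same regions. DBDmut cells had a SMARCA4 peak at 899 regions, 17.0% (16.1 to 18.1%), against 41.6% of all WT SMARCC1 peaks and 48.4% of the new acetylated peaks with WT SMARCA4. delIDR1 cells had one at 293, 5.56% (4.97 to 6.21%), against 23.8% and 25.2%. CBR cells had one at 224, 4.25% (3.74 to 4.83%), against 28.1% and 10.8%, and DDX4 cells at 90, 1.71% (1.39 to 2.09%), against 25.7% and 1.96%. At least 1 mutant had a SMARCA4 peak at 1240 regions (23.5%), compared with 57.0% of the new acetylated peaks with WT SMARCA4. A missing SMARCA4 peak in the WT list was therefore not a missing SMARCA4 peak in every construct, although 4034 regions (76.5%) had none in any mutant.

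H3K27ac was listed at more of the regions than either subunit in each mutant. The selection had required WT H3K27ac and had excluded subunit peaks of Empty cells but not their H3K27ac. The mark was found at 3576 regions in DBDmut, 67.8% (66.5 to 69.1%), and at 3087 in delIDR1, 58.5% (57.2 to 59.9%). Over all WT SMARCC1 peaks these shares were 67.3% and 61.7%, and over the new acetylated peaks with WT SMARCA4 they were 79.1% and 72.2%. CBR cells had H3K27ac at 1570, 29.8% (28.6 to 31.0%), and DDX4 cells at 1692, 32.1% (30.8 to 33.4%), where all WT SMARCC1 peaks gave 48% and 51.1% and the peaks with WT SMARCA4 30.0% in each. In Empty cells replicate 1 had it at 1203 regions, 22.8% (21.7 to 24.0%), and the deeper replicate 2 at 1778, 33.7% (32.4 to 35.0%), against 45.6% and 54.1% of all WT SMARCC1 peaks and 14.1% and 24.5% of those with WT SMARCA4. DBDmut and delIDR1 lay above both Empty replicates. They lay below their own shares at the peaks with WT SMARCA4 over the classes as a whole. At a WT SMARCC1 -log10 q of 4 to 6, DBDmut H3K27ac met 65.0% of the regions and 62.4% of the peaks with WT SMARCA4. In delIDR1 these shares were 55.9% and 52.3%, and in both mutants the intervals overlapped. At 6 to 10 the shares were 70.5% and 73.7% in DBDmut and 61.6% and 65.0% in delIDR1, also with overlapping intervals. At 10 to 20 they were 76.9% and 82.5% in DBDmut and 68.7% and 76.3% in delIDR1. CBR and DDX4 lay between the Empty replicates and, over the classes as a whole, near their shares at the peaks with WT SMARCA4. At 6 to 10, CBR H3K27ac met 29.6% of the regions and 24.4% of the peaks with WT SMARCA4, and DDX4 31.0% and 22.4%. At 10 to 20 the shares were 34.7% and 30.6% in CBR and 34.9% and 30.9% in DDX4, with overlapping intervals.

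**Figure D1:**
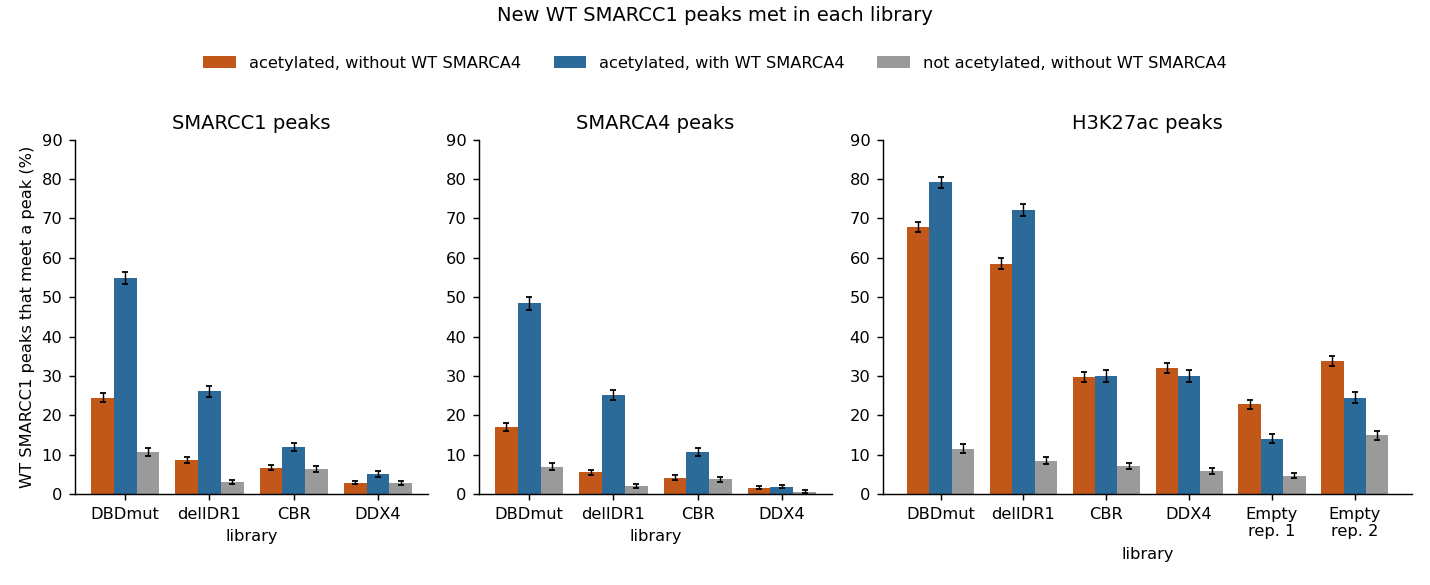
Share of new WT SMARCC1 peaks, in percent, that meet a SMARCC1 (left), SMARCA4 (middle) or H3K27ac (right) peak in each library, for the 5274 acetylated peaks without WT SMARCA4, the 3767 acetylated peaks with it and the 3565 peaks with neither; bars are shares and lines are 95% Wilson intervals. DBDmut is highest for each antibody, at 24.5%, 17.0% and 67.8% of the peaks without WT SMARCA4.

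The mean H3K27ac share over the 4 mutants was 47.0% ± 19.0 (SD, n = 4) and over the Empty replicates 28.3% ± 7.71 (SD, n = 2). The difference of 18.8 percentage points gave p = 0.267 in an exact permutation test, taken two-sided over all 15 labelings, the smallest p of which is 0.0667. Significance was therefore out of reach in this design, the 4 mutants are different constructs and not replicates of one, and their spread, from 29.8% to 67.8%, was larger than the difference. The selection excluded subunit peaks of Empty cells only, so it was not even-handed between the groups. Over all WT SMARCC1 peaks the same difference was 7.16 percentage points, and over the new acetylated peaks with WT SMARCA4 it was 33.5.

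Some of these shares depended on the selection or on the lengths of the lists. Leaving out Empty replicate 2 from the selection raised the DDX4 shares to 6.67% for SMARCC1 and 7.29% for SMARCA4, and the CBR SMARCA4 share to 7.21%. Leaving out Empty replicate 1 raised the DDX4 shares to 5.08% and 2.80%. With the lists of each antibody shortened to equal length, SMARCC1 met 21.8% in delIDR1, 13.8% in CBR and 8.04% in DDX4, SMARCA4 met 14.2% in delIDR1 and 12.0% in DBDmut, and the order of those SMARCA4 shares turned around.

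Within the class, higher WT SMARCC1 peaks were met more often in the SMARCC1 list of each mutant. Among the peaks with WT SMARCA4 this held except for delIDR1, which met 10.4% (11 of 106) at a WT -log10 q of 2 to 4 and 6.85% at 4 to 6. In DBDmut the SMARCC1 share rose from 11.7% of the regions with a WT -log10 q of 2 to 4 to 27.7% at 6 to 10, 44.3% at 10 to 20 and 73.2% (30 of 41) at 20 and above. Peaks with WT SMARCA4 gave 17.9%, 41.5%, 60.6% and 84.6% in the same ranges. In each range the regions without SMARCA4 thus stayed below those with it in DBDmut, although their intervals overlapped in the lowest and the highest range. Heights were not equalized within a range. At 20 and above the -log10 q reached 36.9 without and 131 with WT SMARCA4.

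A lower share without WT SMARCA4 was also seen for SMARCA4 in DBDmut and for both subunits of delIDR1 at a WT -log10 q of 10 to 20. There DBDmut SMARCA4 met 33.7% of the regions without WT SMARCA4 and 52.8% of those with it. In delIDR1 the shares were 17.7% against 27.1% for SMARCC1 and 13.0% against 25.8% for SMARCA4. In CBR and DDX4 the classes lay close together at this height. CBR SMARCC1 met 15.3% without and 12.9% with WT SMARCA4, CBR SMARCA4 met 8.99% and 11.3%, and DDX4 SMARCC1 met 5.03% and 4.48%. For CBR and DDX4 SMARCC1 the lower share of the whole class therefore did not appear in this range.

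**Figure D2:**
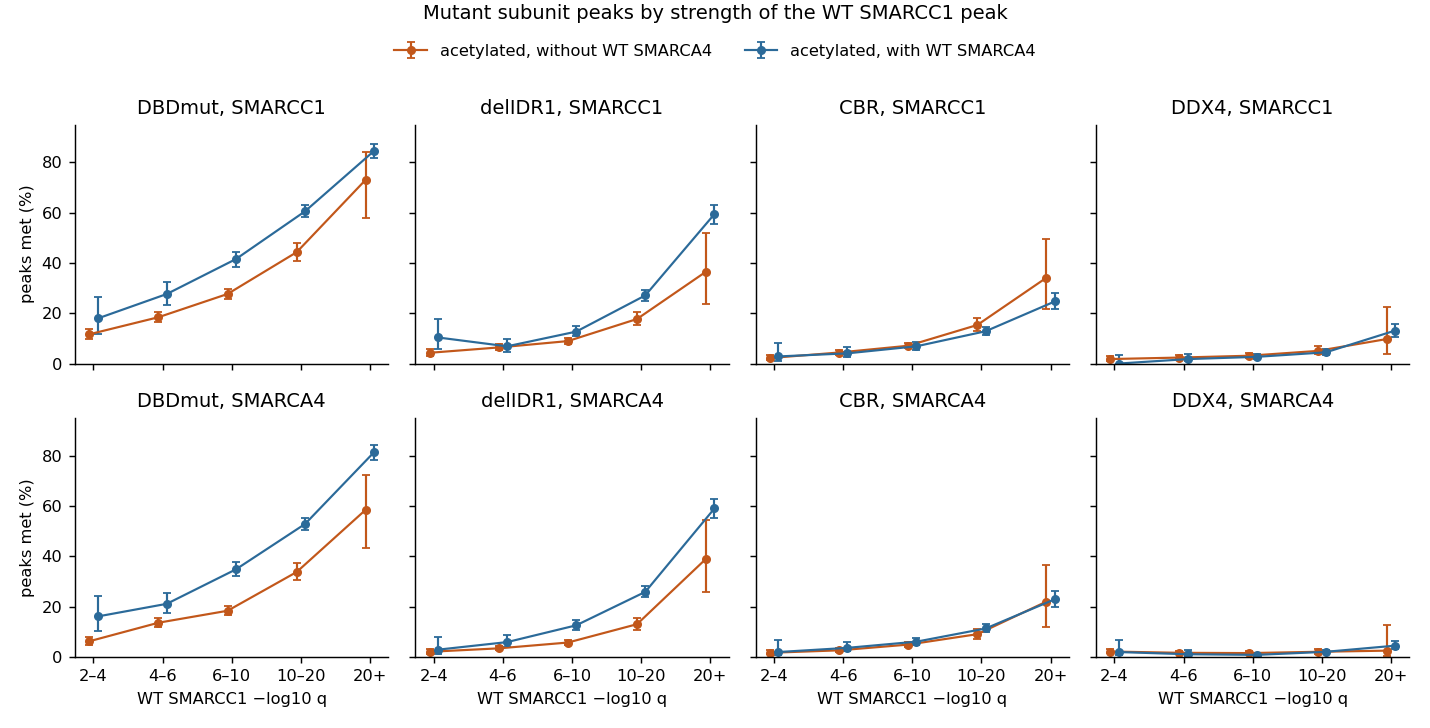
Share of new acetylated WT SMARCC1 peaks, in percent, that meet a mutant SMARCC1 (top) or SMARCA4 (bottom) peak, by the authors' −log10 q of the WT SMARCC1 peak, for peaks without (orange) and with (blue) a WT SMARCA4 peak; lines are 95% Wilson intervals. All DBDmut points of the peaks without WT SMARCA4 lie below those with it, and the CBR and DDX4 points nearly coincide below a −log10 q of 20.

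Acetylation in Empty cells moved the other way. At a WT SMARCC1 -log10 q of 10 to 20, Empty H3K27ac replicate 1 met 24.1% of the regions without WT SMARCA4 and 14.8% of the peaks with it, and at 6 to 10 it met 21.4% and 12.8%. Replicate 2 met 32.9% and 24.6% at 10 to 20. Over the whole class 1034 regions (19.6%) had an H3K27ac peak in both Empty replicates, 169 in replicate 1 alone and 744 in replicate 2 alone. The other 3327 regions (63.1%) had none, against 72.3% of the new acetylated peaks with WT SMARCA4.

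Where a mutant's SMARCC1 was listed at one of the regions, its SMARCA4 was often not. In DBDmut 517 of the 1292 regions with SMARCC1 also had SMARCA4, 40.0% (37.4 to 42.7%), whereas 71.0% of the corresponding new acetylated peaks with WT SMARCA4 did. In delIDR1 the shares were 22.3% and 60.7%, in CBR 28.8% and 49.6%, and in DDX4 8.33% (13 of 156) and 12.0%. In DDX4 the intervals of the 2 classes overlapped. These shares were not matched for WT peak height, in which the classes differ. SMARCA4 was also listed without SMARCC1, at 382 DBDmut (7.24%), 190 delIDR1 (3.60%), 122 CBR (2.31%) and 77 DDX4 (1.46%) regions. At the new acetylated peaks with WT SMARCA4 this was so at 9.48%, 9.29%, 4.78% and 1.35% in the same order.

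Only mutant peaks that overlapped a WT peak were measured, which bounds the distance between their summits. The median distance from the WT SMARCC1 summit to that of the mutant was 36 bp in CBR, 39 bp in DDX4, 45 bp in delIDR1 and 49 bp in DBDmut. For SMARCA4 the medians were 44, 64.5, 48 and 50 bp in the same order. At the peaks with WT SMARCA4 the SMARCC1 distances were much the same, at 36.5, 40, 42 and 39 bp. These subunit peaks were mostly low in their own lists, and 32.7% of the DBDmut SMARCA4 peaks at the regions, 21.8% of those in delIDR1, 42.9% in CBR and 8.89% in DDX4 stood above the list's median fold. The H3K27ac peaks were mostly above it, from 62.4% in DDX4 to 67.5% in CBR.

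The presence of a subunit went with H3K27ac in the same construct. In DBDmut H3K27ac was listed at 483 of the 517 regions with both subunits (93.4%), at 87.1% with SMARCC1 alone, at 82.7% with SMARCA4 alone and at 2102 of 3600 (58.4%) with neither. Regions with neither subunit were acetylated in 54.6% of cases in delIDR1, 25.2% in CBR and 29.5% in DDX4. Regions with both were acetylated in 96.1%, 85.3% and, for 13 regions, 100% of cases. The new acetylated peaks with WT SMARCA4 gave similar shares in DBDmut, 96.1% with both, 88.6% with SMARCC1 alone, 83.2% with SMARCA4 alone and 55.3% with neither. Subunit peaks were also commoner at higher WT peaks, so height and subunit cannot be told apart in these shares.

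Among the 3327 regions without H3K27ac in either Empty replicate, the mutants fell into 2 pairs. DBDmut had H3K27ac at 59.6% of them and delIDR1 at 49.3%. The CBR share was 9.32% and the DDX4 share 8.78%. The new acetylated peaks with WT SMARCA4 and no Empty H3K27ac gave 75.4%, 66.8%, 15.0% and 15.0%. Where Empty cells already had H3K27ac, at 1947 regions, the shares were 81.9%, 74.3%, 64.7% and 71.9%. The gap between the pairs was thus wide where acetylation was absent in Empty cells and narrow where it was present. Even with neither of its own subunit peaks, DBDmut had H3K27ac at 1063 of 2257 such regions (47.1%) and delIDR1 at 1332 of 2967 (44.9%), against 7.81% in CBR and 8.60% in DDX4. The corresponding peaks with WT SMARCA4 gave 48.8%, 54.1%, 10.5% and 13.7% in DBDmut, delIDR1, CBR and DDX4, so this acetylation without subunit peaks was found in both classes.

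The subunits of CBR and DDX4 were found mainly where Empty cells had H3K27ac. CBR SMARCC1 met 14.0% of the 1947 regions with Empty H3K27ac and 2.43% of the 3327 without, and CBR SMARCA4 8.89% and 1.53%. DDX4 SMARCC1 met 7.09% and 0.541%, and DDX4 SMARCA4 4.31% and 0.180%. In delIDR1 the difference was smaller for SMARCC1, 11.2% against 7.27%, and within the intervals for SMARCA4, 5.91% against 5.35%. DBDmut SMARCC1 met 24.4% and 24.6%, and DBDmut SMARCA4 met fewer of the regions with Empty H3K27ac, 15.0% against 18.2%. Split by Empty replicate 1 alone, DBDmut SMARCC1 was 3.69 percentage points higher at regions with Empty H3K27ac, and split by replicate 2 alone the difference was -0.812, so it had no stable direction. For DBDmut SMARCA4 these differences were -0.976 and -4.16.

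WT peak height differed little between these subsets, with a median SMARCC1 -log10 q of 5.81 with and 6.11 without Empty H3K27ac. The split was also seen where WT had SMARCA4. At the new acetylated peaks with WT SMARCA4, CBR SMARCC1 met 26.6% with and 6.47% without Empty H3K27ac, and DDX4 SMARCC1 12.3% and 2.28%.

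**Figure D3:**
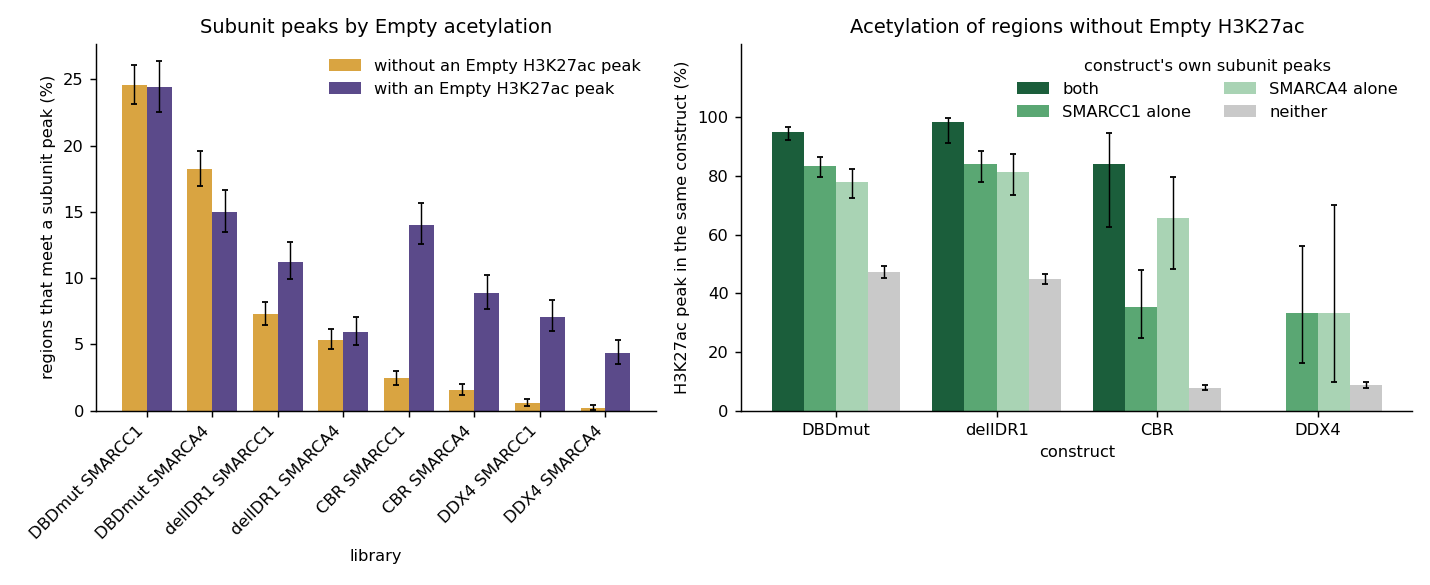
Left: percent of the 5274 regions that meet a mutant SMARCC1 or SMARCA4 peak, split into the 1947 with and the 3327 without an H3K27ac peak in Empty cells. Right: percent of the 3327 regions that meet an H3K27ac peak of a mutant, by that mutant's own subunit peaks; lines are 95% Wilson intervals. CBR and DDX4 subunit shares are higher with Empty H3K27ac, and regions with neither subunit are acetylated in 47.1% and 44.9% of cases in DBDmut and delIDR1.

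Across constructs, 3578 regions (67.8%) had SMARCC1 in no mutant, 1244 in 1, 355 in 2, 79 in 3 and 18 in all 4. SMARCC1 was in no mutant at 38.5% of the new acetylated peaks with WT SMARCA4. SMARCA4 was in all 4 mutants at 1 region. H3K27ac was in none at 1083 regions (20.5%) and in all 4 at 944 (17.9%), so the mark was listed in more constructs than the subunits. The peaks with WT SMARCA4 showed the same, with H3K27ac in none at 13.5% and in all 4 at 19.5%. There SMARCC1 was in all 4 mutants at 1.83% and SMARCA4 at 0.611%. Both classes required WT H3K27ac and excluded subunit peaks of Empty cells but not their H3K27ac. The mutant H3K27ac lists were also longer, with 30991 to 40271 peaks on chromosomes 1 to 22 against 7011 to 18427 for the subunits. The part of selection and list length in this spread was not tested. Both DBDmut and delIDR1 had H3K27ac at 2638 regions (50.02%), and at 1090 (20.7%) these were the only mutants with it. At the peaks with WT SMARCA4 these shares were 65.5% and 30.4%. The reverse, H3K27ac in CBR and DDX4 and in neither of the others, was seen at 58 regions (1.10%). With WT SMARCA4 it was seen at 3 peaks (0.0796%). Neither subunit was listed in any mutant at 3135 regions (59.4%), of which 2213 had H3K27ac in at least 1 mutant. With WT SMARCA4, 29.3% of the peaks had neither subunit in any mutant. At 836 regions (15.9%) no mutant had a peak of the 3 antibodies and Empty cells had no H3K27ac, against 9.19% with WT SMARCA4.

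The 20 regions of highest WT SMARCC1 -log10 q held ranks 720 to 2336 of the WT list. They do not stand for the whole class. DBDmut SMARCA4 met 17.0% of all 5274 regions and 58.5% of those at a -log10 q of 20 and above. Peaks with WT SMARCA4 gave 81.4% in that range. DBDmut had SMARCC1 at 15 of the 20, SMARCA4 at 15 and H3K27ac at 19. delIDR1 had 8, 8 and 16, CBR 8, 8 and 10, and DDX4 4, 1 and 9. Over all 5274 regions the shares were 24.5%, 17.0% and 67.8% in DBDmut and 8.74%, 5.56% and 58.5% in delIDR1. In CBR they were 6.71%, 4.25% and 29.8%, and in DDX4 2.96%, 1.71% and 32.1%. SMARCA4 was listed in at least 1 mutant at 17 of the 20, against 23.5% of all 5274 regions. Of the 20, 13 had no H3K27ac in Empty cells, close to the 63.1% of all 5274 regions.

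The highest region, chr9:116246577-116246924, had a WT SMARCC1 fold of 14.7 and 42 fragments at its summit, with the next WT SMARCA4 peak 28826 bp away. DBDmut had SMARCC1 there with a fold of 14.7, SMARCA4 with 8.30 and H3K27ac with 7.04, and delIDR1 had 15.5, 11.6 and 7.82. CBR, DDX4 and Empty cells had no peak of these antibodies at this region, so SMARCA4 was listed in a pair of mutants and not in WT.

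At chr1:89450769-89451168 SMARCA4 was listed in DBDmut with a fold of 14.2, in delIDR1 with 13.6 and in CBR with 6.27, and each of these mutants also had SMARCC1. The next WT SMARCA4 peak was 7146 bp away. At chr9:2559418-2559854 SMARCA4 had folds of 8.35, 10.2 and 8.19 in DBDmut, delIDR1 and CBR, and H3K27ac was listed in WT and all 4 mutants but in neither Empty replicate. DDX4 had H3K27ac at both regions and neither subunit.

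DBDmut and delIDR1 both had SMARCC1 at 268 regions, and at 94 of these, 35.1%, neither had SMARCA4. At the new acetylated peaks with WT SMARCA4 this was so at 82 of 813, 10.1%. Of each whole class these were 1.78% and 2.18%, and neither comparison was matched for WT peak height. The highest of the 94 was chr20:46190071-46190286, where SMARCC1 was listed in all 4 mutants, with folds from 7.93 in DDX4 and 8.99 in DBDmut to 9.90 in CBR and 9.93 in delIDR1. No mutant had SMARCA4 there. H3K27ac there was listed in WT only, with a fold of 5.25. At the next, chr1:95249004-95249625, DBDmut and delIDR1 had SMARCC1 with folds of 6.10 and 5.43 and H3K27ac with 7.18 and 10.1, and CBR, DDX4 and Empty cells had no peak.

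At chr3:135615477-135615831 SMARCC1 was listed in all 4 mutants and SMARCA4 in all but DDX4, with folds of 7.52 in DBDmut, 7.80 in delIDR1 and 5.00 in CBR. H3K27ac was listed in every mutant there and in neither Empty replicate. DDX4 had both subunits at 13 regions in all. The highest was chr15:42236542-42236787, with a DDX4 SMARCC1 fold of 6.62 and a SMARCA4 fold of 5.55, and H3K27ac there was listed in every construct and both Empty replicates. The highest region with no peak in any mutant and no Empty H3K27ac was chr2:62405929-62406140, where WT SMARCC1 had a fold of 12.1 and WT H3K27ac 11.1.

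**Figure D4:**
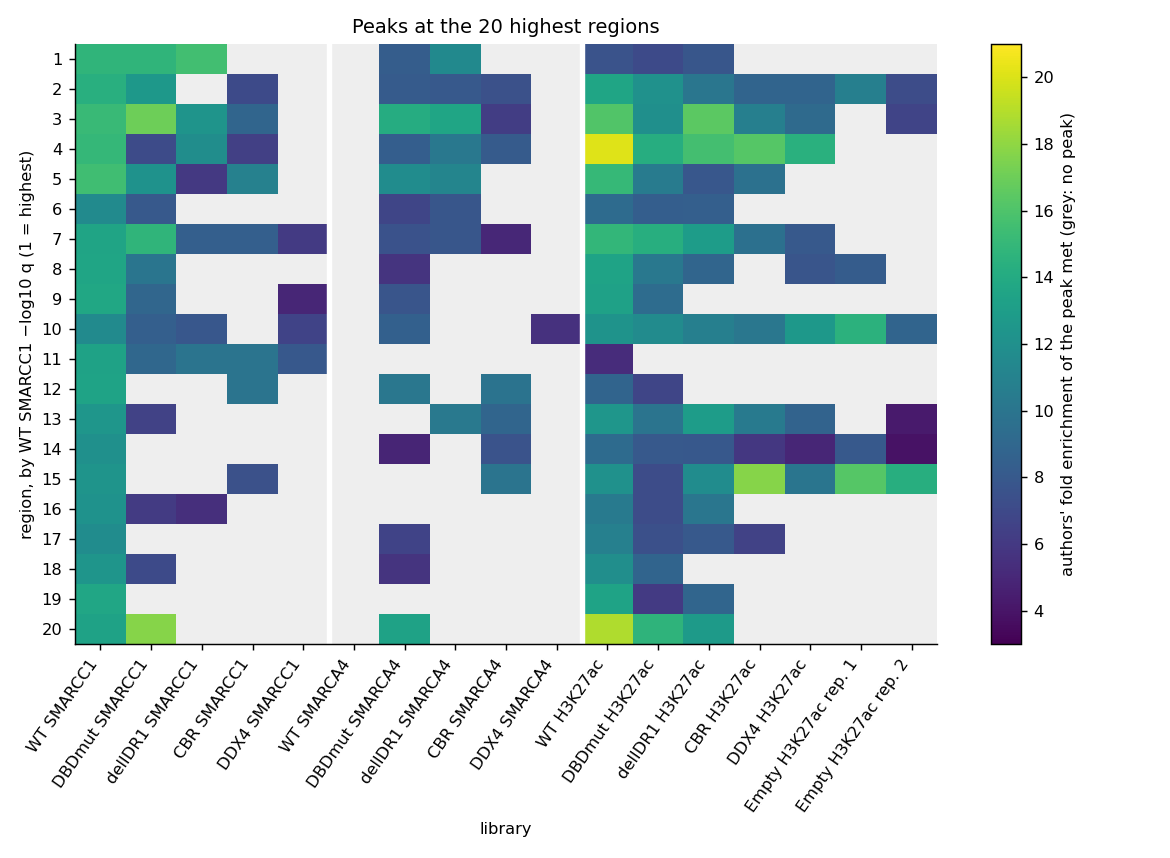
The 20 regions of highest WT SMARCC1 −log10 q (vertical, 1 is the highest) against the libraries (horizontal), coloured by the authors' fold enrichment of the peak met, with grey for no peak; a fold is comparable only within a column. The WT SMARCA4 column is empty by selection, while DBDmut has SMARCA4 at 15 of the 20 regions and H3K27ac at 19. Over all 5274 regions these DBDmut shares are 17.0% and 67.8%.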

How the data were processed

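The authors deposited 1 narrowPeak list per library, so peaks were called per library. The deposited fold enrichment is a ratio, the significance values are -log10 p and -log10 q, and the summit is an offset from the peak start. Per the submitters' processing notes, the build was hg19 and bcl2fastq (no version) was used. The sources used here give no aligner, duplicate handling, peak caller or control library. Positions are hg19, written 1-based. No hg19 genome or annotation was used here, so genes, sequences and motifs are not reported.

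Titles gave the construct and antibody of each sample. Peaks met when they shared 1 bp, and where several met, the one of highest -log10 q was described. Named regions were the 20 of highest WT SMARCC1 -log10 q, the 5 highest of each combination of mutant peaks, and the 3 nearest each side of the SMARCA4 criterion, of which a part is described. The regions, ranges and comparisons were chosen with earlier results of these data known. Fold and -log10 p together gave the summit pileup as a whole number (tolerance 0.001 in -log10 p) for 99.5% to 99.968% of the peaks of a list. The lowest background divided by the shortest peak gave fragments per kb, an estimate of depth. Overlap and pileup scripts were tested on simulated data. Python 3.11.15, numpy 2.4.6, pandas 2.3.3, scipy 1.17.1 and matplotlib 3.10.9 were used. Alternatives covered -log10 q of at least 5, lists of equal length, summits within 200 bp, overlap of 50% of the shorter peak, no WT SMARCA4 peak within 1000 bp, chromosome X, and leaving out each Empty replicate.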

Additional observations from a re-analysis of the deposited data

Results flagged for a closer look

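The HA library of DDX4 cells, which reads the tagged DDX4 hybrid itself and enters none of the comparisons above, had a peak at 53 of the 5274 regions, or 1.005% (95% Wilson interval 0.769 to 1.31%). It was looked at again because peaks appeared in a library outside the main measurements, above a preset floor of 3 regions (0.0569%). Over all WT SMARCC1 peaks the share was 15.2%, and over the new acetylated peaks with WT SMARCA4 it was 3.72%. Of the 53 regions, 39 had a DDX4 H3K27ac peak and 36 an Empty H3K27ac peak, while 4 had DDX4 SMARCC1 and 4 DDX4 SMARCA4. Of all 5274 regions, 32.1% had DDX4 H3K27ac, 1947 regions had Empty H3K27ac, 2.96% had DDX4 SMARCC1 and 1.71% DDX4 SMARCA4. No HA library of Empty cells was analysed here, and the HA library was the shallowest, at 0.463 fragments per kb.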

How the results depend on the processing

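Of 96 alternative shares (12 shares, 8 alternatives), 51 stayed within the interval of the reported share. None left its interval when regions within 1000 bp of a WT SMARCA4 peak were dropped (4979 regions) or chromosome X was added (5390). With -log10 q of at least 5 (4229 regions), H3K27ac met 31.2% in CBR, 70.1% in DBDmut and 61.0% in delIDR1, SMARCA4 4.56% in delIDR1, and SMARCC1 26.6% in DBDmut and 7.26% in delIDR1. With lists of equal length (9489 SMARCC1, 5453 SMARCA4 and 30991 H3K27ac peaks), 1829 regions were left. There H3K27ac met 36.6% in CBR, 81.2% in DBDmut, 38.6% in DDX4 and 76.6% in delIDR1, SMARCA4 5.30%, 12.0% and 14.2% in CBR, DBDmut and delIDR1, and SMARCC1 13.8%, 28.8%, 8.04% and 21.8% in CBR, DBDmut, DDX4 and delIDR1. With 50% overlap (5244 regions) SMARCC1 met 23.3% in DBDmut. With summits within 200 bp (4787 regions) H3K27ac met 27.8%, 60.9%, 28.8% and 51.4% in CBR, DBDmut, DDX4 and delIDR1, and SMARCC1 7.44% in CBR.

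Without Empty replicate 1 or 2 the selection held 5689 or 6406 regions. H3K27ac then ran from 33.1% to 39.5% in CBR, 69.2% to 71.7% in DBDmut, 36.1% to 42.9% in DDX4 and 60.3% to 62.9% in delIDR1. SMARCA4 ran from 6.10% to 7.21%, 18.3% to 19.0%, 2.80% to 7.29% and 5.78% to 5.85% in the same order, and SMARCC1 from 8.91% to 9.94%, 26.8% to 28.6%, 5.08% to 6.67% and 10.1% to 11.3%. The causes were not tested. The order of constructs was the same in every setting for SMARCC1 and H3K27ac but not for SMARCA4: CBR passed delIDR1 without Empty replicate 1, DDX4 and CBR did without replicate 2, and delIDR1 passed DBDmut with equal lists.

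The difference in H3K27ac share between mutants and Empty was 20.6 percentage points with -log10 q of at least 5 (exact permutation p = 0.2), 32.5 with equal lists (p = 0.133) and 18.5 with 50% overlap (p = 0.267). Leaving out an Empty replicate gave 11.7 (exact permutation p = 1) and 20.1 (p = 0.4), where the smallest p is 0.2. The split by Empty H3K27ac replicate 1 or 2 alone was chosen after seeing the data. It gave CBR SMARCC1 18.5% against 3.22% and 13.95% against 3.03%, and DDX4 SMARCC1 10.1% against 0.860% and 7.26% against 0.772%. No paired analysis was possible because replicate numbers exist only in Empty cells, and each mutant had 1 library per antibody. Depth was estimated at 0.913 to 1.94 background fragments per kb in the SMARCA4 libraries and 1.32 to 3.29 in the SMARCC1 libraries, and a peak missing at this depth is not shown to be absent.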

Other observations

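The same combination was also counted in each mutant's own lists, as new acetylated SMARCC1 peaks without a SMARCA4 peak of that mutant. DBDmut had 2563 such peaks, delIDR1 1161, CBR 880 and DDX4 562. Of all new acetylated SMARCC1 peaks of a construct they made up 52.1% for DBDmut, 61.1% for delIDR1, 64.2% for CBR and, at the top, 91.8% for DDX4, beside 58.3% for WT. WT SMARCA4 was listed at 25.8% of those of DBDmut, 34.0% of those of delIDR1, 21.4% for CBR and 27.4% for DDX4. Many met no WT SMARCC1 peak either. Such a peak was met by 62.8% of the delIDR1, 51.7% of the DBDmut, 50.5% of the DDX4 and 44.8% of the CBR peaks. How often WT SMARCA4 was listed at the other SMARCC1 peaks of a mutant was not counted, so these shares have no comparison. The combination was therefore present in every construct, and part of it in each mutant had SMARCA4 in WT. The 91.8% of DDX4 came from 612 new acetylated peaks and from libraries with a stamp of their own. Its SMARCC1 list was the shortest, with 9489 peaks, but its SMARCA4 list, with 8614, was longer than the 7011 of delIDR1. The part of list length or stamp in this share was not tested.

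The regions were spread over the chromosomes. Chromosome 19 held 128 of them (2.43%), like the new acetylated peaks with WT SMARCA4 (2.50%) and unlike the WT SMARCC1 peaks met by Empty peaks (6.45%). Joined at distances under 10 kb, 85 regions (1.61%) fell in 27 groups of 3 or more, and no group held more than 4. In one group of 4 on chromosome 11, between 65246721 and 65259560, DBDmut, delIDR1 and DDX4 had H3K27ac at all 4 regions and both Empty replicates at 3. In another on chromosome 10, between 93334851 and 93349270, DBDmut had SMARCC1 at 2 of the 4 regions and SMARCA4 at 2, and DDX4 had neither subunit. These groups were chosen after their values were seen.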
